A study of Mus musculus with 75 samples.

Results

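Interferon-stimulated genes are a group of 39 genes that were chosen by symbol, and 37 of them were found in both deposited count tables. Mx1 and Mx2 were not analysed here. After the filter on low counts, 37 members were tested in untreated mice, 36 at 2 h (all but Oas3) and 37 at 24 h. The study profiled enteric glial cells, the glia of the gut's own nervous system, from adult reporter mice, in which glia carry green fluorescent protein. Its 75 libraries form 16 groups in 3 experiments, and each animal carried the reporter. In the first experiment, cells of untreated reporter mice came from the myenteric plexus (between the muscle layers) and the submucosal plexus of the small intestine (6 libraries each) and the colon (5 each). In the second, reporter mice received 1 intraperitoneal injection of LPS (lipopolysaccharide, bacterial endotoxin, from E. coli O111:B4) at 2 mg/kg or of PBS, and the myenteric plexus was sampled after 2 h (4 libraries per region and treatment). In the third, the same injections were followed by 24 h, in Gpr37WT reporter mice (wild type below) and in Gpr37-/- reporter mice (knockout below), again in the myenteric plexus. In wild type, small-intestinal libraries numbered 6 after PBS and 4 after LPS, and colon libraries 4 and 5. In knockouts they numbered 4 and 5, and 5 and 4. The 24 h libraries came from 22 mice, of which 15 gave both regions.

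Interferons are secreted cytokines that act through JAK kinases. Type I interferons, such as interferon beta, activate a complex with STAT2 and IRF9 that binds the interferon-stimulated response element (ISRE), and type II interferon, the interferon gamma of lymphocytes, acts through gamma-activated sites (GAS). LPS is sensed by TLR4, which can switch on the interferon beta gene, so that a cell exposed to LPS or its neighbours can come under interferon's influence. The members fall into transcription factors (Irf1, Irf7, Irf9, Stat2), sensors of foreign nucleic acid (Ifih1, Ddx58, Dhx58, Zbp1), the feedback regulator Usp18, antiviral effectors (the Ifit, Oas and Ifitm3 genes and others) and GTPases that act against intracellular pathogens (Igtp, Irgm1, Irgm2, Iigp1, Ifi47).

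The letters of these elements can be read in the promoters. RefSeq's promoter table (build GRCm38.p6) matched 30 of the 37 members by symbol, and the 250 bases before each transcription start were searched on both strands. The ISRE core, searched as GAAA, any 2 bases and GAAA again (TTTC on either side of the 2 bases when read on the other strand), was found in 13 of 30 members (43.3%), against 3.46% of the 27025 genes in the table. The GAS letters, TTCNNNGAA, which read the same on both strands, were found in 7 of 30 members (23.3%) against 8.13% of genes. Windows are printed below for the 9 members that hold the ISRE core and whose levels are given library by library. For Irgm1, Oas1a and Oas3 those levels were added after their values were seen. Irf1, the member with the smallest adjusted p at 2 h, is added for its GAS match and was picked after its values were seen. Capitals mark the letters of the ISRE core (overlapping matches run together), and in Irf1 those of the GAS match, and bases are counted back from the start, which makes -1 the last base before it.
Ifit1 (chr19:34640773-34640825, plus strand): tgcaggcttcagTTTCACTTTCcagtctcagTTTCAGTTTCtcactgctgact
Ifit3 (chr19:34583361-34583428, plus strand): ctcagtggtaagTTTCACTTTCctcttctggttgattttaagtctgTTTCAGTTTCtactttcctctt
Rsad2 (chr12:26456551-26456584, minus strand): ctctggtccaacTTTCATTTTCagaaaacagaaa
Isg15 (chr4:156200863-156200908, minus strand): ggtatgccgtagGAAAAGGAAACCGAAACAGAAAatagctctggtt
Bst2 (chr8:71537575-71537614, minus strand): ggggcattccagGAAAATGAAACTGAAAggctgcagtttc
Igtp (chr11:58199510-58199543, plus strand): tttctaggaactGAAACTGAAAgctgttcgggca
Irgm1 (chr11:48871423-48871462, minus strand): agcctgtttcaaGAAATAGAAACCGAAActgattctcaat
Oas1a (chr5:120907526-120907557, minus strand): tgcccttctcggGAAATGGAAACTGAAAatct
Oas3 (chr5:120777713-120777746, minus strand): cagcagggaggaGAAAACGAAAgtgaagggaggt
Irf1 (chr11:53769912-53769944, plus strand; GAS letters in capitals): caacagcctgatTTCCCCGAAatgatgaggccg
Ifit1 and Ifit3 each held 2 separate ISRE cores, in Ifit1 within bases -116 to -64 and in Ifit3 within -168 to -101. Isg15 held 3 overlapping cores, and Bst2, Irgm1 and Oas1a each held 2. The windows of Bst2 and Igtp also held a GAS match, which is not in capitals: in Bst2, at -136 to -128, it overlapped 1 core, and in Igtp it lay at -45 to -37. The 68 bases printed for Ifit3 are identical in its neighbour Ifit3b, and the 34 bases printed for Igtp have 33 in common with Irgm2. Irf1 held the GAS letters at -90 to -82 and no ISRE core, and Irf7 held neither in this window. A match is a description of letters, not of binding.

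Total counts per library were between 2547296 and 9002546 for untreated mice, 1990744 and 7883251 at 2 h, and 2882539 and 33283346 at 24 h. Levels below are counts-per-million (CPM), scaled by TMM, and log2 fold changes are given ± SE from the quasi-likelihood test of edgeR, with p adjusted by Benjamini-Hochberg over every gene of the experiment and called at an adjusted p under 0.05. Gpr37, the gene deleted in the knockouts, had 3 or fewer counts in 17 of 18 knockout libraries (at most 9) and in 4 of 19 wild-type libraries, whose median was 59 counts. The wild-type LPS mouse numbered 3 was low in both regions (small intestine 0 counts, colon 2), and the main wild-type LPS counts are also given without its library of the region compared. The wild-type LPS colon libraries of mice 5 and 8 had 0 counts as well. Mouse 8 had 100 counts in the small intestine, and mouse 5 gave no library of that region. The doubt about low Gpr37 in wild-type LPS colon is thus not confined to mouse 3. The 6 glial markers summed to 750.3 to 2115 CPM in PBS colon libraries at 2 h and to 305 to 3264 CPM across the PBS libraries at 24 h. At 2 h the 5 smooth muscle markers summed to 16856 to 63466 CPM after PBS and 17283 to 52304 CPM after LPS in the colon. In the small intestine they summed to 2216 to 14403 CPM after PBS and 1157 to 16719 CPM after LPS. The part of smooth muscle cells in the members' levels was not tested. In bulk samples, fewer cells of a type and less RNA per cell cannot be told apart. Mitochondrial genes took 4.24% to 26.0% of counts in libraries of the 24 h mice numbered 10 and below and 1.66% to 10.4% in those numbered 11 and above. With the latter alone, 25 members rose in wild-type small intestine and 17 in wild-type colon, where 9.68% and 9.57% of all genes were called, and 11 and 6 in knockouts, where 0.600% and 0.606% were called. In wild type after LPS, that subset was mice 13 and 16 in each region. Wild-type colon libraries came from mice 14, 19, 22 and 24 after PBS and from mice 3, 5, 8, 13 and 16 after LPS. Small-intestinal ones came from mice 9, 14, 19, 22, 23 and 24 after PBS and 3, 8, 13 and 16 after LPS. Mouse number was therefore not balanced between treatments in wild type. The counts of all mice are given below. Among the 2 h libraries, the LPS colon library of female 1 stood apart in the members: its mean log2 CPM over 36 members was 5.26, and the other LPS colon libraries ran from 6.03 to 6.75.

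At 2 h after LPS, Irf1, the Ifit1 effector and the GTPases Ifi47 and Irgm1 were higher in the myenteric libraries of both regions, and Irf7 was not. In the small intestine 6 of 36 members rose and none fell, in a comparison in which 1.1% of all 13107 genes tested were called (1.08% higher). In the colon 4 of 36 rose and none fell, against 0.778% of genes called (0.74% higher). The median log2 fold change of the members was 0.95 for small intestine and 0.65 for colon, and over all genes it was -0.02 and -0.00. The log2 fold change was above 0 for 33 of 36 members (small intestine) and for 30 of 36 (colon). In the colon the counts of Oas2 gave only a bound, at least 0.403-fold, which does not show a direction. With Oas2 set at that bound the colon median was 0.58.

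Irf1 encodes a transcription factor that is itself induced within hours by interferon gamma and by NF-kappaB, without new protein synthesis. Its level in the small intestine was 47.0, 119, 84.3 and 102 CPM in the PBS libraries and 654, 652, 1193 and 789.7 CPM in the LPS libraries (log2 fold change 3.22 ± 0.31, adjusted p = 3.27e-05). Its colon level was 111, 92.7, 94.7 and 77.9 CPM after PBS and 684, 996, 1034 and 1321 CPM after LPS (log2 fold change 3.42 ± 0.31, adjusted p = 2.19e-05). Each LPS library was above each PBS library by a wide margin, including the LPS colon library of female 1. Irf7, the factor that amplifies the type I response, was not called: it was 27.8, 46.8, 66.6 and 47.8 CPM after PBS and 64.5, 79.0, 51.0 and 38.5 CPM after LPS in the small intestine (log2 fold change 0.30 ± 0.71, adjusted p = 1.00). In the colon the LPS libraries gave 0.669, 56.3, 54.6 and 52.7 CPM within a PBS range of 31.0 to 77.4 CPM, apart from the first, that of female 1, which was far below it. Without that library the colon log2 fold change of Irf7 was 0.11. Irf9 and Stat2, which act in the type I complex, had log2 fold changes from 0.14 to 0.53 in the 2 regions, and neither was called.

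Among the effectors, Ifit1, which binds foreign RNA at its end, had the largest called change. It went from 43.7, 103, 103 and 77.6 CPM after PBS to 510.1, 1929, 1328 and 1599 CPM after LPS in the small intestine (log2 fold change 4.04 ± 0.57, adjusted p = 6.60e-04). In the colon it went from 36.2, 144, 82.7 and 137 CPM to 155, 544, 864 and 742 CPM (log2 fold change 2.53 ± 0.54, adjusted p = 0.0313). The groups did not overlap in either region, though the LPS colon library of female 1 was just above the highest PBS library. Rtp4, an effector that restrains viral replication, rose in the small intestine, from 39.3 to 149 CPM to 203 to 409 CPM (log2 fold change 1.76 ± 0.38, adjusted p = 0.0287), and had a log2 fold change of 1.65 ± 0.38 in the colon (adjusted p = 0.0646). Rsad2, which encodes viperin, an enzyme that blocks viral RNA synthesis, was 14.8, 49.7, 40.9 and 56.7 CPM after PBS and 244, 172, 199.96 and 512 CPM after LPS in the small intestine. These groups did not overlap, but the change was not called (log2 fold change 2.80 ± 0.66, adjusted p = 0.0529). Isg15, a ubiquitin-like modifier, gave 19.2 to 41.4 CPM after PBS and 69.5 to 113 CPM after LPS there (log2 fold change 1.45 ± 0.39, adjusted p = 0.117). Ifit3, Ifit3b and Oasl1 also had LPS libraries that were all above the PBS libraries in the small intestine without being called. In all, 11 of 36 members had LPS libraries wholly above PBS there, as did 3.44% of genes, and in the colon 7 of 36, as did 2.25% of genes. Reads that Ifit3 shares with its near-identical copy Ifit3b, and reads shared among the Oas and Oasl genes, may have been split or lost in the authors' counting, which makes these levels uncertain.

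Of the GTPases, which attack the vacuoles that hold intracellular pathogens, Ifi47 rose from 172, 269, 321 and 256 CPM to 854, 1172, 1368 and 1280.2 CPM in the small intestine (log2 fold change 2.20 ± 0.29, adjusted p = 3.75e-04). In the colon it rose from 236, 280.2, 198 and 311 CPM to 504, 560.0, 1239 and 725 CPM (log2 fold change 1.56 ± 0.29, adjusted p = 0.0113). Irgm1, which regulates the other members of its family, had log2 fold changes of 2.03 ± 0.29 and 1.37 ± 0.29 in the small intestine and the colon (adjusted p = 7.25e-04 and 0.0293). Both genes had no overlap between LPS and PBS in either region. Iigp1 passed the test in the small intestine close to the threshold (log2 fold change 1.64 ± 0.38, adjusted p = 0.0442), and Igtp and Irgm2 passed in neither region. None of the 4 sensors was called at 2 h, and Usp18 was at 1.26 and 1.38 (log2 fold changes, neither called).

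The calls at 2 h differed in how far they rested on single libraries. In the small intestine, Irf1, Ifit1, Ifi47 and Irgm1 passed with each of the 8 libraries left out in turn, Iigp1 in 3 of 8 and Rtp4 in 2 of 8. In the colon Irf1 passed in 8 of 8, Ifi47 in 6, Irgm1 in 3 and Ifit1 in 1. The colon count was 7 without the LPS library of female 1, with Isg15, Rsad2 and Rtp4 added to the 4 genes. It was 1 without the PBS library of female 1 or of female 3, and 2 without the PBS library of male 2 or the LPS library of female 3 or of male 4. The shares of all genes called in these leave-outs are not given here. The response to LPS was not shown to differ between regions: none of 36 members had a difference (colon response minus small-intestinal response) past the threshold by edgeR or by DESeq2, and 0% of all genes passed. None of the members had an unadjusted p under 0.05, as did 3.45% of genes. DESeq2 called 11 members (small intestine) and 7 (colon) at this time, beside 1.90% and 2.19% of all genes, and edgeR 1 in the colon when the groups compared were fitted alone, beside 0.557% of genes. The difference between regions was -1.51 ± 0.72 for Ifit1 and 0.20 ± 0.40 for Irf1 on the log2 scale.

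**Figure D1:**
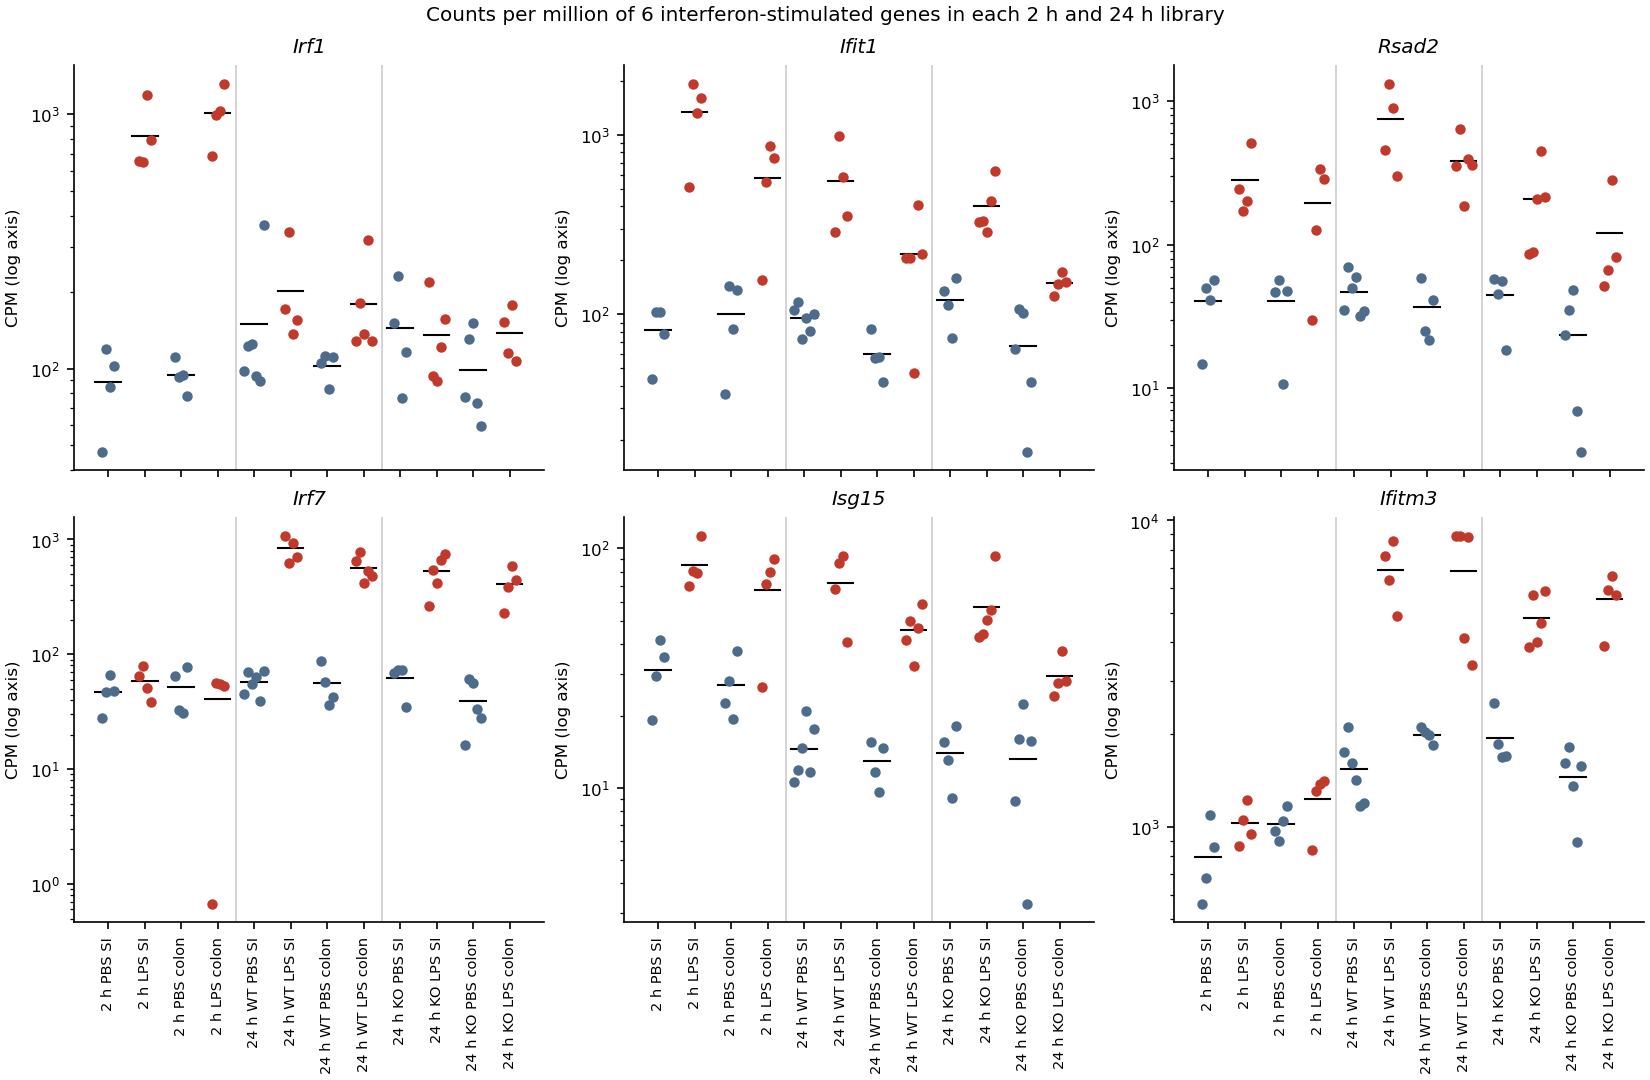
CPM of 6 members on a log axis, with 1 point per library of the 2 h and 24 h experiments (blue PBS, red LPS), a line at each group's mean and grey lines between the 2 h, wild-type and knockout groups (SI, small intestine; WT, wild type; KO, knockout). The 8 LPS libraries at 2 h hold the highest Irf1 levels (652 to 1321 CPM), Irf7 and Ifitm3 are high in LPS libraries at 24 h, and 1 LPS colon library at 2 h lies at 0.669 CPM of Irf7.

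A day after LPS more members passed in wild-type libraries, led by Irf7 and Rsad2, and Irf1 was not among them. In the small intestine 22 of 37 members rose and none fell, where 7.17% of 14903 genes were called (4.18% higher). In the colon 18 of 37 rose and none fell, where 7.96% of genes were called (3.96% higher). All 18 genes called in the colon were among the 22 called in the small intestine, and the others were Igtp, Dhx58, Stat2 and Ifi35. Median log2 fold changes were 2.05 and 1.39 for the members, and -0.13 and -0.03 for all genes. The log2 fold change was above 0 for 36 of 37 members in the small intestine, Irf9 being the exception, and for 37 of 37 in the colon. Without the small-intestinal library of mouse 3 the count there was 22, and without its colon library the colon count was 16. The shares of all genes called without these libraries are not given here.

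Among the transcription factors, Irf7 was high at 24 h. It was 39.02 (lowest), 59.2 (median) and 71.4 (highest) CPM over the 6 PBS libraries of the small intestine, and 1075, 629, 939 and 701 CPM in the 4 LPS libraries (log2 fold change 3.86 ± 0.34, adjusted p = 1.24e-08). The colon gave 88.3, 57.1, 36.1 and 42.5 CPM after PBS and 654, 773, 417, 526 and 477 CPM after LPS (log2 fold change 3.35 ± 0.39, adjusted p = 2.74e-06). The lowest LPS library was more than 4 times the highest PBS library in both regions, and Irf7 had the smallest adjusted p of all members in each. Irf1 in LPS libraries of the small intestine was 172, 344, 136 and 156 CPM, within the PBS range of 89.6 to 367 CPM (log2 fold change 0.44 ± 0.38, adjusted p = 0.551). The top of that range was the library of mouse 14, and the other PBS libraries ran from 89.6 to 125 CPM, below each LPS library. The log2 fold change of Irf1 was 1.00 without that library (adjusted p = 0.0611) and 0.0513 without the LPS library of mouse 8 (adjusted p = 0.970). In the colon its LPS libraries, at 128 to 322 CPM, lay just above the PBS libraries, at 82.7 to 112 CPM, and the change was not called (log2 fold change 0.81 ± 0.40, adjusted p = 0.207). Stat2 rose in the small intestine (log2 fold change 1.28 ± 0.40, adjusted p = 0.0457) but kept its call in only 3 of 10 leave-outs, and Irf9 was at -0.05 ± 0.31.

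Of the 4 sensors, 2 rose in the small intestine. Zbp1, which senses Z-form nucleic acid and starts necroptosis, was 8.22 (lowest), 22.3 (median) and 44.4 (highest) CPM after PBS and 139, 148, 167 and 115 CPM after LPS (log2 fold change 2.53 ± 0.40, adjusted p = 7.99e-05). It was 29.1, 27.6, 36.8 and 31.0 CPM and 147, 125, 129, 193 and 147 CPM in the colon (log2 fold change 2.25 ± 0.44, adjusted p = 0.00179). Dhx58, which encodes LGP2, a regulator of the RNA sensors, rose in the small intestine by 2.37 ± 0.52 and had 1.20 ± 0.56 in the colon (adjusted p = 0.00364 and 0.174). The RNA helicase sensors themselves, Ifih1 (MDA5) and Ddx58 (RIG-I), had log2 fold changes from 0.41 to 1.03, and neither was called. Usp18, which removes ISG15 from proteins and dampens signalling at the type I receptor, was 29.5 to 44.5 CPM after PBS and 147, 203, 239 and 199.96 CPM after LPS in the small intestine (log2 fold change 2.46 ± 0.34, adjusted p = 1.06e-05). The colon gave 46.2, 27.9, 18.4 and 26.5 CPM and 140.2, 144, 70.0, 184 and 139.7 CPM (log2 fold change 2.19 ± 0.37, adjusted p = 4.30e-04). The groups of Zbp1 and Usp18 did not overlap in either region.

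Of 23 effectors, 13 rose in wild-type small intestine and 12 in wild-type colon. Rsad2 had the largest log2 fold change among called members in both regions. It was 31.7 (lowest), 42.4 (median) and 69.9 (highest) CPM after PBS and 460.2, 1324, 896 and 301 CPM after LPS in the small intestine (log2 fold change 4.00 ± 0.59, adjusted p = 3.08e-05). In the colon it was 58.3, 25.2, 21.6 and 41.4 CPM and 351, 636, 185, 396 and 359 CPM (log2 fold change 3.40 ± 0.66, adjusted p = 0.00162). The neighbouring Cmpk2, a mitochondrial nucleotide kinase, had 2.49 ± 0.38 and 1.66 ± 0.41 in the 2 regions. Ifitm3, a membrane protein that blocks virus entry, was 1168 (lowest), 1521 (median) and 2122 (highest) CPM after PBS and 7643, 6377, 8581 and 4871 CPM after LPS in the small intestine (log2 fold change 2.15 ± 0.25, adjusted p = 1.11e-06). Its colon levels were 2113, 2035, 1986 and 1851 CPM and 8904, 8880.4, 4127, 8801 and 3365 CPM (log2 fold change 1.77 ± 0.28, adjusted p = 1.89e-04). Bst2, which encodes tetherin, a protein that holds budding virus at the cell surface, was 111 to 185 CPM after PBS and 712, 479.9, 656 and 244 CPM after LPS in the small intestine (log2 fold change 1.97 ± 0.26, adjusted p = 6.53e-06). Its colon libraries gave 167, 199.8, 200.2 and 189 CPM and 417, 483, 471, 465 and 315 CPM (log2 fold change 1.19 ± 0.28, adjusted p = 0.00866). In these 3 genes no LPS library overlapped the PBS libraries.

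Ifit1, which had also risen at 2 h, was high in wild-type libraries. Its level was 72.6 (lowest), 98.3 (median) and 117 (highest) CPM after PBS and 289, 989.7, 583 and 352 CPM after LPS in the small intestine (log2 fold change 2.54 ± 0.41, adjusted p = 1.03e-04). Its colon level was 82.9, 57.1, 57.9 and 42.2 CPM and 205, 207, 47.2, 407 and 217 CPM (log2 fold change 1.85 ± 0.45, adjusted p = 0.00994), and mouse 3, at 47.2 CPM, overlapped the PBS libraries. Isg15 was 67.7, 87.0, 92.9 and 40.5 CPM against 10.6 to 21.0 CPM in the small intestine and 41.5, 49.6, 32.3, 46.6 and 58.9 CPM against 9.59 to 15.6 CPM in the colon, with log2 fold changes of 2.31 ± 0.34 and 1.83 ± 0.37. Ifit2 and Ifit3 rose in both regions by 1.95 to 2.54, and their relative Ifit3b, at 1.87 and 1.97, was not called. In the Oas group, Oas1a and Oasl1 rose in both regions (1.80 to 3.32), and Oas2, Oas3 and Oasl2 did not pass. Xaf1, a promoter of apoptosis, rose in both (2.30 and 1.82), as did Rtp4, while Ifi35 rose in the small intestine. The effectors Isg20, Trim30a, Herc6, Parp14, Ifi44 and Epsti1 were called in no LPS comparison at either time.

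All GTPases but Irgm2 rose in wild-type small intestine. Irgm1 was 75.3 (lowest), 123 (median) and 139.9 (highest) CPM after PBS and 698, 1377, 791 and 421 CPM after LPS (log2 fold change 2.79 ± 0.36, adjusted p = 5.12e-06), and Ifi47 was 74.6 (lowest), 109 (median) and 159 (highest) CPM and 831, 1380.3, 821 and 441 CPM (log2 fold change 3.01 ± 0.46, adjusted p = 4.63e-05). Iigp1 was 80.2 to 245 CPM after PBS and 816, 1161, 1241 and 806 CPM after LPS (log2 fold change 2.67 ± 0.37, adjusted p = 1.54e-05), and Igtp was 83.3 to 249.6 CPM and 681, 1292, 947 and 522 CPM (log2 fold change 2.40 ± 0.48, adjusted p = 0.00128). In the colon Irgm1 rose by 1.88 ± 0.39 and Ifi47 by 1.88 ± 0.50 on the log2 scale. Iigp1 rose there with an adjusted p of 0.0470, a call that each of the 9 leave-outs removed, and Igtp was at 1.36 ± 0.51 (adjusted p = 0.0893).

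**Figure D2:**
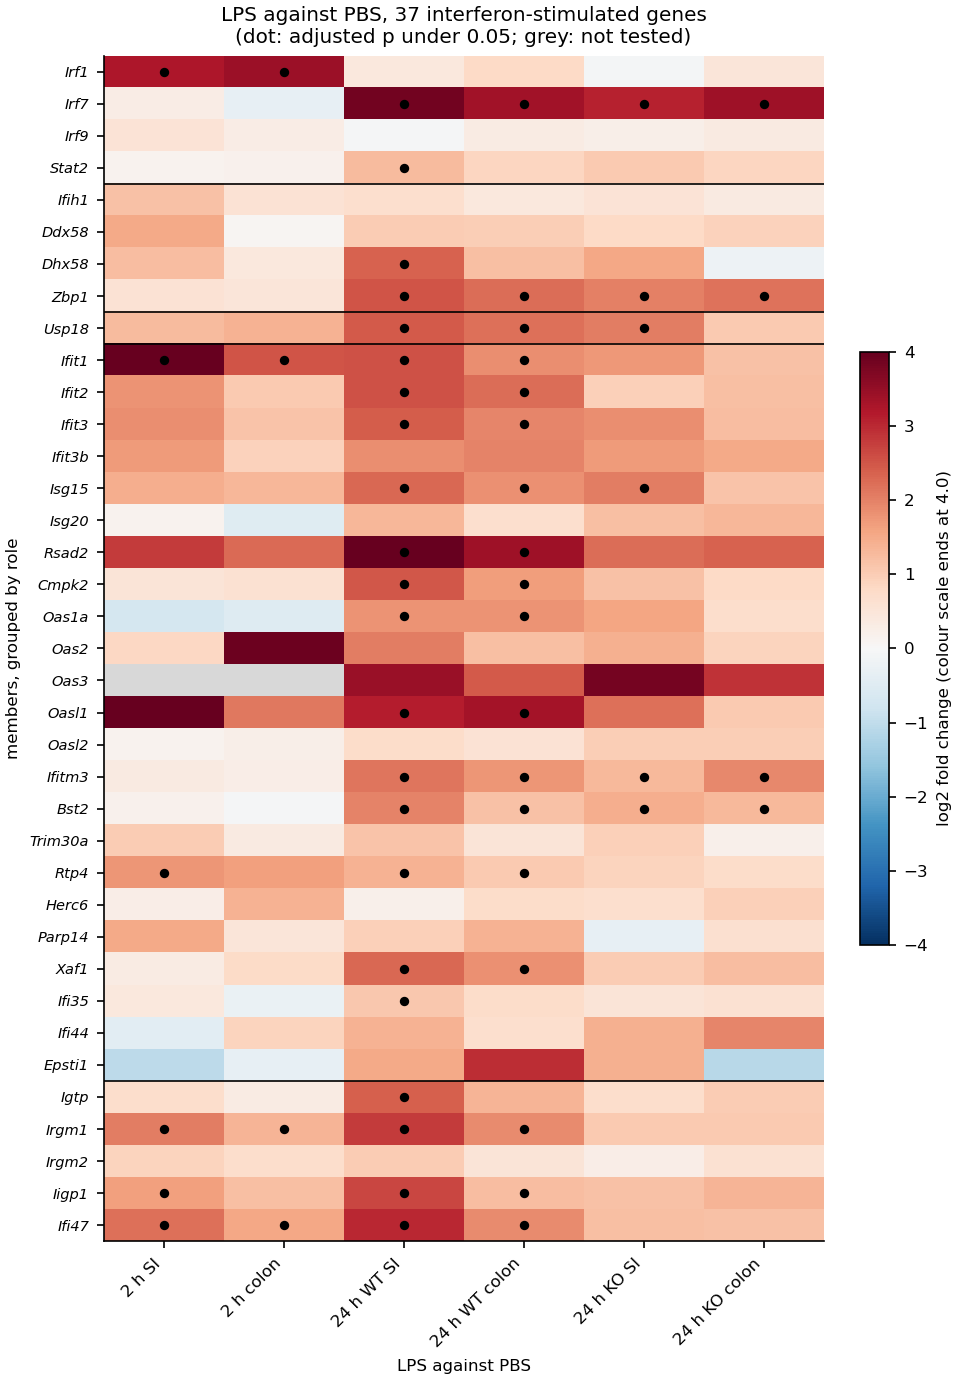
Log2 fold change of LPS against PBS for 37 members (rows, grouped from the top as transcription factors, sensors, Usp18, effectors and GTPases) in 6 comparisons (columns; SI, small intestine; WT, wild type; KO, knockout), with a black dot where edgeR's adjusted p was under 0.05 and grey where a gene was not tested. Dots number 6 and 4 at 2 h, 22 and 18 in wild type at 24 h, and 6 and 4 in knockouts; Oas2, Oas3 and, at 2 h, Oasl1 have strong colours without a dot.

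The 2 times can be set side by side but were measured in different mice and tables, and the difference between them was not tested. Of the 6 members called in the small intestine at 2 h, 5 were also called in wild-type small intestine at 24 h (83.3% of the 6 and 22.7% of the 22): Ifi47, Ifit1, Iigp1, Irgm1 and Rtp4. The remaining gene was Irf1. Of the 4 called in the colon at 2 h, 3 were called in wild-type colon at 24 h (75.0% of the 4 and 16.7% of the 18), and the fourth again was Irf1. Over all 6 LPS comparisons, 14 of 37 members were never called, and 7 were called in 4: Ifi47, Ifit1 and Irgm1 at both times in mice without the knockout, and Irf7, Ifitm3, Bst2 and Zbp1 in each comparison at 24 h.

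In Gpr37 knockout libraries at 24 h, Irf7, Zbp1, Ifitm3 and Bst2 rose in both regions, and fewer members passed the test than in wild type. In the small intestine 6 of 37 members rose and none fell, against 0.718% of genes called (0.53% higher), and in the colon 4 of 37 rose and none fell, against 0.718% (0.637% higher). Over all genes, too, fewer were called in knockouts than in wild type. The members' median log2 fold change was 1.19 for small intestine and 1.04 for colon, over all genes -0.05 and -0.07, and it was above 0 for 35 of 37 members in each region. LPS libraries lay wholly above PBS libraries for 15 of 37 members in the small intestine (3.09% of genes) and 10 of 37 in the colon (2.07% of genes). DESeq2 called 12 members (small intestine) and 8 (colon), beside 3.47% and 3.29% of all genes. The non-overlapping counts in wild type were 25 (6.21% of genes) and 19 (4.35% of genes). Irf7 passed in both knockout regions under each alternative fit that was run, and Usp18 and Isg15 did in the small intestine. With only the groups compared, Irf7 alone of the members passed in the colon, as did 0.0544% of all genes, and Ifitm3 did not pass in the small intestine. With 1 library left out, Zbp1 in the small intestine lost its call without the PBS library of mouse 12, 15 or 20, Ifitm3 there without that of mouse 20, and Bst2 in the colon without the LPS library of mouse 2. Bst2 in the colon was also not called with the mice numbered 11 and above alone.

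Irf7 in knockout small intestine was 68.7, 72.5, 73.6 and 34.5 CPM after PBS and 262, 543, 420.1, 656 and 750.5 CPM after LPS (log2 fold change 3.08 ± 0.38, adjusted p = 4.02e-05). In knockout colon it was 16.1, 60.9, 56.2, 33.3 and 28.0 CPM and 228, 383, 589 and 444 CPM (log2 fold change 3.40 ± 0.36, adjusted p = 1.25e-06). The groups were far apart in both regions, as in wild type. Zbp1 was 30.0, 18.7, 17.8 and 42.3 CPM after PBS and 80.5, 122, 87.3, 121 and 134 CPM after LPS in the small intestine (log2 fold change 2.00 ± 0.44, adjusted p = 0.0169), and had 2.17 ± 0.42 in the colon (adjusted p = 0.00786). Ifitm3 was 2532, 1858, 1693 and 1696 CPM and 3851, 5694, 4023, 4619 and 5890.4 CPM in the small intestine (log2 fold change 1.31 ± 0.27, adjusted p = 0.0122). The colon gave 1608, 1822, 1353, 892 and 1581 CPM and 3897, 5919, 6604 and 5692 CPM (log2 fold change 1.93 ± 0.27, adjusted p = 9.98e-05). Bst2 had 1.46 ± 0.28 and 1.28 ± 0.27 in the 2 regions. Usp18 and Isg15 passed in the small intestine (2.05 ± 0.37 and 2.03 ± 0.37) but not in the colon (1.04 ± 0.35 and 1.14 ± 0.35). Usp18 was called in the colon with the mice numbered 11 and above alone (log2 fold change 1.85, adjusted p = 0.0213), and Isg15 by DESeq2 (1.13, adjusted p = 0.0489).

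Rsad2 was called by edgeR in wild type and, with all libraries, not in knockouts. It was 57.7, 45.7, 56.2 and 18.5 CPM after PBS and 86.7, 89.3, 207, 451 and 214 CPM after LPS in knockout small intestine (log2 fold change 2.23 ± 0.62, adjusted p = 0.0856). In knockout colon it was 23.4, 35.3, 48.3, 6.97 and 3.61 CPM and 51.6, 66.1, 283 and 81.4 CPM (log2 fold change 2.35 ± 0.60, adjusted p = 0.0537). The groups did not overlap in either region, and the third colon library, mouse 2, was well above the others. Ifit1 was 135, 112, 74.0 and 159 CPM after PBS and 327, 332, 288, 427 and 627 CPM after LPS in knockout small intestine, again with no overlap (log2 fold change 1.74 ± 0.44, adjusted p = 0.0554). By edgeR Rsad2 passed in the small intestine without the LPS library of mouse 11 (adjusted p = 0.0297), and in the colon without the LPS library of mouse 11 or the PBS library of mouse 1 (adjusted p = 0.0219 and 0.0378). Ifit1 passed in the small intestine without the LPS library of mouse 11, with RLE scaling or with the mice numbered 11 and above (adjusted p = 0.0267, 0.0428 and 0.0291). DESeq2 called Rsad2 in both knockout regions, with log2 fold changes of 2.30 and 2.36 (adjusted p = 0.00489 and 0.00359), and Ifit1 in the small intestine (1.78, adjusted p = 0.00226). None of the 5 GTPases passed in knockouts by edgeR with all libraries. Iigp1 was called there by DESeq2 in both regions (adjusted p = 0.0451 for the small intestine, 0.0209 for the colon). By edgeR Iigp1 passed in the small intestine without the LPS library of mouse 11 (adjusted p = 0.0426) and in the colon without the PBS library of mouse 15 (adjusted p = 0.0397). Irgm1 was 168, 158, 85.7 and 247 CPM after PBS and 305, 209, 329, 460.4 and 399 CPM after LPS in the small intestine (log2 fold change 1.05 ± 0.38, adjusted p = 0.220), and these groups overlapped.

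Whether the response differed between genotypes was tested as an interaction, the knockout response minus the wild-type response. None of the 37 members passed in either region by edgeR or by DESeq2, and 0% of all genes passed in each. Without adjustment, 9 of 37 members had p under 0.05 in the small intestine, all with the smaller response in knockouts, as did 3.88% of all genes in either direction. They were Irgm1, Xaf1, Iigp1, Ifi47, Ifit2, Igtp, Cmpk2, Ifitm3 and Rsad2. The difference was -1.74 ± 0.51 for Irgm1, -1.81 ± 0.65 for Ifi47 and -1.70 ± 0.68 for Igtp on the log2 scale, each with an adjusted p of 1.00. The differences of Irf7 (-0.79 ± 0.47) and Isg15 (-0.28 ± 0.49) were within 2 SE of 0. In the colon 2 of 37 members had an unadjusted p under 0.05, Usp18 (-1.15 ± 0.50) and Epsti1 (-4.05 ± 1.93), as did 13.5% of genes. The difference was below 0 for 32 of 37 members (small intestine) and for 25 of 37 (colon), with medians of -0.53 and -0.32 against 0.09 and 0.00 over all genes. With the library of mouse 3 in the region compared left out, the interaction again called 0 members in each region.

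The libraries of the 2 genotypes were also compared directly within each treatment. After PBS, no member passed between knockout and wild type in either region by edgeR or DESeq2, and 0% of all genes passed in each. None had an unadjusted p under 0.05, against 1.72% of genes (small intestine) and 4.22% (colon). After LPS no member passed by edgeR, where 0.0134% of genes passed (small intestine) and 0.429% (colon). DESeq2 called none (small intestine) and Oas1a (colon, beside 5.16% of genes). Unadjusted p-values were under 0.05 for 8 of 37 members in the small intestine (7 lower in knockouts and Irf9 higher) and for 7 of 37 in the colon (all lower), against 7.63% and 16.4% of genes. Irgm1 was among them in both regions. Its LPS libraries in the colon gave 569, 745, 420.3, 548 and 740.1 CPM in wild type and 256, 258, 352 and 280.3 CPM in knockouts, which did not overlap (log2 fold change -1.08 ± 0.38, adjusted p = 0.165). Those of the small intestine gave 698, 1377, 791 and 421 CPM and 305, 209, 329, 460.4 and 399 CPM, which overlapped in 1 wild-type library (log2 fold change -1.27 ± 0.37, adjusted p = 0.349). Iigp1 in the small intestine did not overlap either, at 816, 1161, 1241 and 806 CPM in wild type and 184, 305, 426, 601 and 662 CPM in knockouts (log2 fold change -1.21 ± 0.38, adjusted p = 0.368). With the mice numbered 11 and above alone, 2 members passed in the colon, Rsad2 (log2 fold change -2.92) and Xaf1 (-1.21), beside 2.18% of genes. That subset compares knockout mice 11, 17 and 21 with wild-type mice 13 and 16. It leaves out knockout mouse 2, whose Rsad2 level after LPS was 283 CPM in the colon, against 51.6 to 81.4 CPM in the other knockouts.

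**Figure D3:**
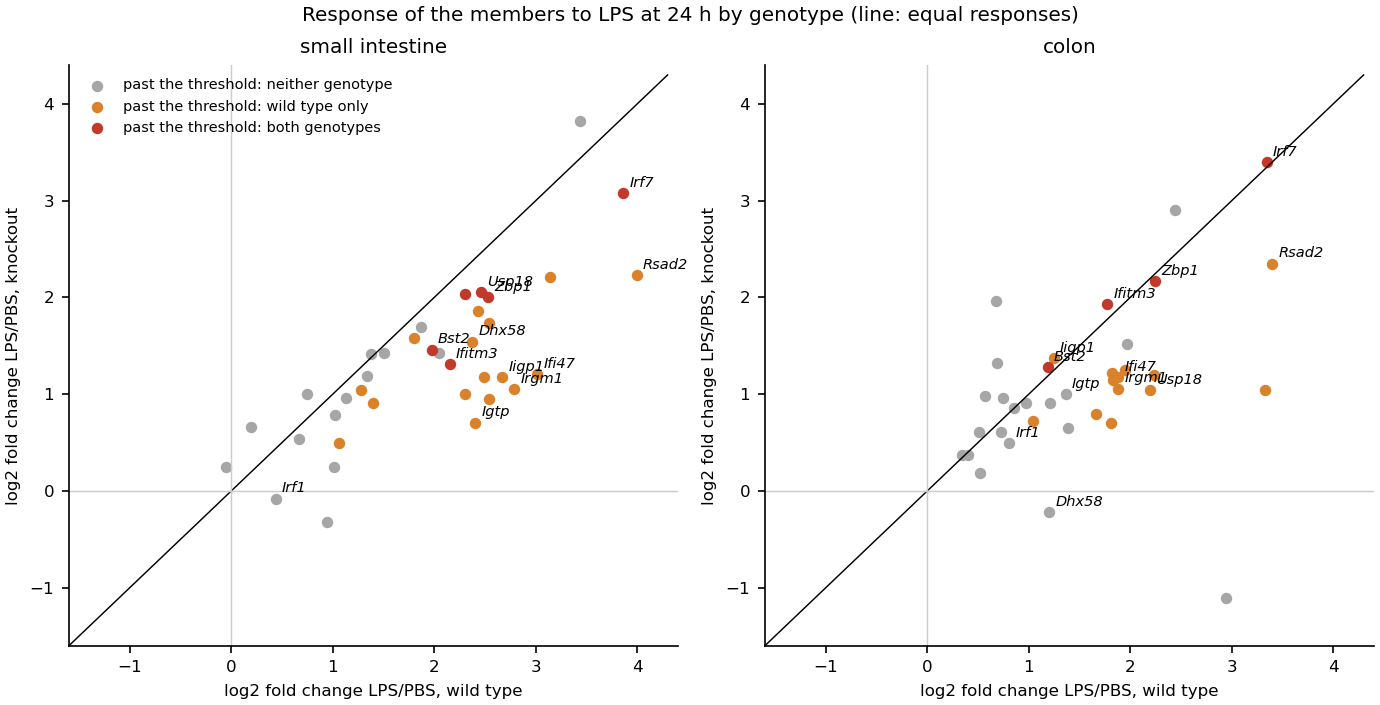
Each point is 1 of 37 members, with its log2 fold change of LPS against PBS at 24 h in wild type (x axis) and in knockouts (y axis), for the small intestine (left) and the colon (right), and a line where both are equal. On the left 32 of 37 points lie below the line and on the right 25 of 37, with Irf7 and Rsad2 at the upper right; no member's distance from the line passed the test.

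The 2 regions were compared in the same way at 24 h, as the colon response minus the small-intestinal response. No member passed in wild type or knockouts by edgeR or DESeq2, and 0% of genes passed in each. In wild type 2 of 37 had an unadjusted p under 0.05, Iigp1 (-1.42 ± 0.53) and Bst2 (-0.79 ± 0.38), and in knockouts 1, Dhx58 (-1.76 ± 0.79), against 7.56% and 4.13% of genes. These SEs and p-values come from the edgeR fit without a mouse block, though 15 mice gave both regions. With the mouse as the block, no member passed either. The median difference of the members was -0.48 in wild type and -0.02 in knockouts.

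The mean log2 CPM over the members gives 1 value per library. At 2 h it was 5.59 ± 0.47 (SD, n = 4) after PBS and 6.74 ± 0.25 (n = 4) after LPS in the small intestine, and 5.40 ± 0.22 and 6.07 ± 0.62 in the colon. At 24 h in wild type it was 5.32 ± 0.19 (n = 6) and 7.26 ± 0.36 (n = 4) in the small intestine and 5.21 ± 0.23 (n = 4) and 6.60 ± 0.34 (n = 5) in the colon. Knockouts gave 5.48 ± 0.18 (n = 4) and 6.76 ± 0.49 (n = 5) in the small intestine and 4.93 ± 0.57 (n = 5) and 6.18 ± 0.13 (n = 4) in the colon. Within each 24 h region and genotype the lowest LPS library was above the highest PBS library. At 2 h this held for the small intestine. The LPS colon library of female 1 (5.26) was inside the PBS range of its region.

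**Figure D4:**
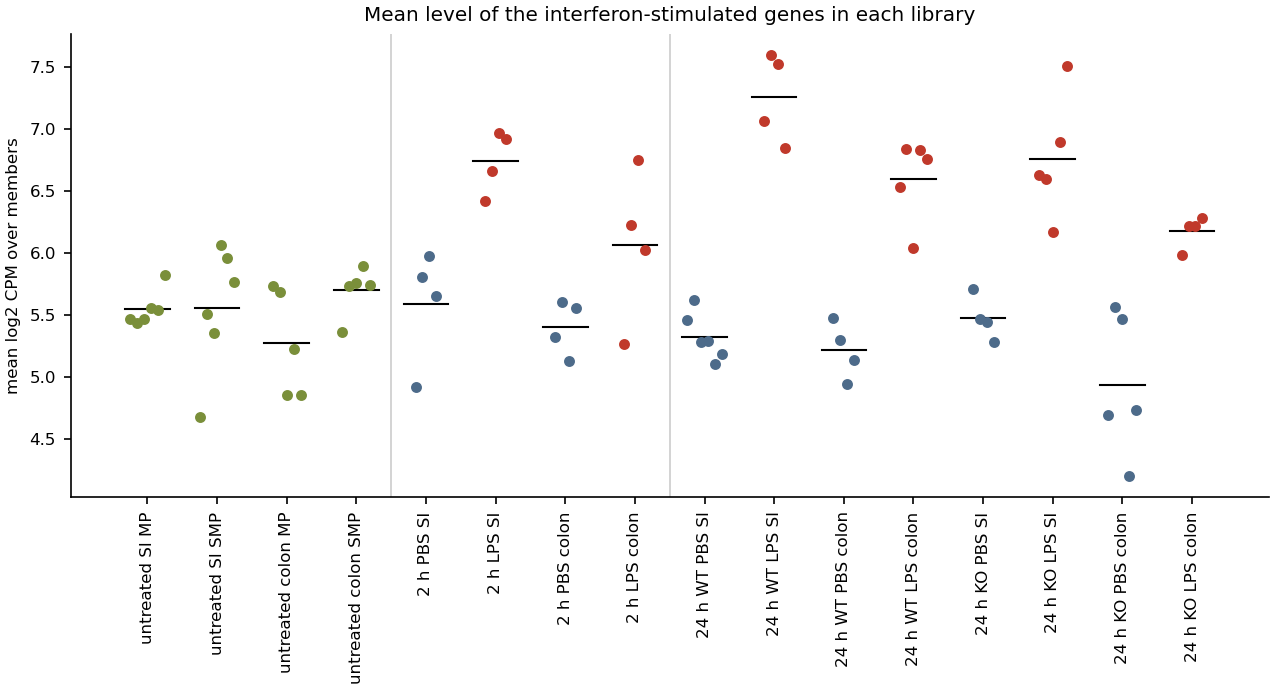
Mean log2 CPM over the members (y axis; 36 members at 2 h, 37 otherwise) in each of the 75 libraries by group (green untreated, blue PBS, red LPS; line, group mean; SI, small intestine; MP, myenteric; SMP, submucosal plexus). Untreated libraries lie from 4.68 to 6.07, and the 4 wild-type LPS libraries of the small intestine at 24 h have the highest group mean, with values from 6.85 to 7.60.

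The genes upstream of the members were followed in a list of 40 interferon pathway genes, of which 23 passed the filter at 2 h and 24 at 24 h. Ifnb1, which encodes interferon beta, had 32, 7, 37 and 0 counts in the 4 LPS libraries of the small intestine at 2 h. It had 1, 1, 0 and 0 counts in the LPS colon libraries, 1 count in 1 of the 8 PBS libraries, and 0 counts in each of the 37 libraries at 24 h and the 22 untreated libraries. The interferon alpha genes together had 9 counts in 1 knockout LPS colon library (mouse 2, the library with the high Rsad2) and 0 counts in all other LPS and PBS libraries. Ifng, for interferon gamma, had 1 count in all at 2 h, and at 24 h between 1 and 13 counts in 4 of 37 libraries. No gene of the list was called at 2 h by edgeR (4 of 23 had an unadjusted p under 0.05 in each region). At 24 h in wild-type small intestine 3 of 24 rose: Stat3, the factor downstream of interleukin-6 and interleukin-10 (1.44 ± 0.19), Irf8 (1.75 ± 0.48) and Eif2ak2, the RNA-activated kinase PKR (1.31 ± 0.33). Stat3 alone rose in wild-type colon (1.00 ± 0.21) and knockout colon (0.86 ± 0.20), and none passed in knockout small intestine, where 5 of 24 had an unadjusted p under 0.05.

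Markers of leukocytes moved with LPS at 24 h in part. The 8 neutrophil markers summed to 0 to 3.61 CPM after PBS and 7.41 to 841 CPM after LPS in wild-type small intestine, where 5 of the 7 tested rose. In wild-type colon 2 of 7 rose, with sums of 0.0965 to 144 CPM and 9.32 to 2315 CPM. In each knockout region 1 of 7 rose, with sums of 0.156 to 1.39 CPM after PBS and 8.52 to 1834 CPM after LPS in the small intestine, and 0.243 to 59.9 CPM and 3.14 to 505 CPM in the colon. The 8 macrophage markers summed to 288 to 2222 CPM after PBS and 366 to 1580.1 CPM after LPS in wild-type small intestine, where 1 fell and none rose. They summed to 296 to 956 CPM and 513 to 3207 CPM in wild-type colon, 65.1 to 764 CPM and 336 to 5844 CPM in knockout small intestine, and 150.4 to 3506 CPM and 366 to 948 CPM in knockout colon, and none was called in these 3 comparisons. Of the other marker lists, the dendritic cell gene Ccr7 rose in wild-type colon, the fibroblast gene Col1a1 fell in both wild-type regions, and the glial marker Gfap rose in wild-type small intestine. At 2 h neither neutrophil nor macrophage markers had a called gene. Of the 2 lymphocyte markers tested then, Jchain, of plasma cells, rose in the small intestine (log2 fold change 4.91 ± 1.14, adjusted p = 0.0478), from 17.0, 12.7, 5.82 and 8.26 CPM after PBS to 11.9, 294, 901 and 98.5 CPM after LPS. The 6 lymphocyte markers summed to 6.42 to 17.9 CPM after PBS and 14.1 to 918 CPM after LPS there, and 1 LPS library lay within the PBS range. Neutrophil marker sums were 0 to 2.21 CPM after PBS and 0 to 158 CPM after LPS in the small intestine. The part of these cells in the members' levels was not tested.

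In untreated mice single members differed between the plexuses: Ifit3 and Ifit3b were lower, and Oas1a higher, in submucosal than in myenteric libraries of both regions. In the small intestine 5 of 37 members were higher and 9 lower, where 43.5% of 14090 genes passed (22.3% up, 21.2% down). For the colon, 5 were higher and 8 lower, where 21.8% of genes passed (10.7% up, 11.1% down). The members' median log2 fold changes were -0.07 and 0.04, and 0.06 and -0.01 over all genes. The small-intestinal counts lie near or below the shares of all genes called and are no result about the members as a group. With only the groups compared, the colon count was 7, beside 14.9% of all genes, and Ifit1, Ifit2, Ifitm3, Cmpk2, Irf1 and Epsti1 were not called there. Ifit1 and Ifit2 in the colon each kept their call in 2 of 10 leave-outs.

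Ifit1 was 76.2 (lowest), 112 (median) and 152 (highest) CPM in the myenteric and 10.1 (lowest), 34.9 (median) and 40.7 (highest) CPM in the submucosal libraries of the small intestine, without overlap (log2 fold change -1.94 ± 0.34, adjusted p = 1.26e-04). In the colon it was 78.1, 146, 88.6, 107 and 34.1 CPM and 30.3, 72.5, 37.04, 45.5 and 36.9 CPM, with overlap (log2 fold change -1.02 ± 0.36, adjusted p = 0.0480). Ifit3 was 182, 160.5, 83.4, 174 and 76.3 CPM in myenteric and 20.3, 71.6, 48.3, 64.9 and 71.9 CPM in submucosal colon libraries, without overlap (log2 fold change -1.28 ± 0.34, adjusted p = 0.0113), and had -1.50 ± 0.32 in the small intestine. Ifit2, Ifit3b, Cmpk2, Xaf1, Parp14 and Ifitm3 were also lower in submucosal libraries of both regions, with log2 fold changes from -1.88 (Ifit3b) to -0.56 (Ifitm3), both in the small intestine. Oasl2 was lower in the small intestine (-0.86 ± 0.29).

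Irf1 was 75.0 (lowest), 96.1 (median) and 161 (highest) CPM in myenteric and 121 (lowest), 176 (median) and 233 (highest) CPM in submucosal libraries of the small intestine (log2 fold change 0.77 ± 0.24, adjusted p = 0.0142). Its colon level was 109, 94.6, 48.2, 59.9 and 151 CPM and 158, 171, 166, 156 and 206 CPM, without overlap (log2 fold change 0.89 ± 0.27, adjusted p = 0.0205). These submucosal levels were below the 652 to 1321 CPM of the LPS libraries at 2 h, a comparison across separately scaled experiments that was not tested. Oas1a, one of the synthetases that make the activator of RNase L, was 11.7, 12.4, 4.38, 6.22 and 12.3 CPM in myenteric and 28.9, 48.4, 36.2, 42.7 and 25.9 CPM in submucosal colon libraries (log2 fold change 1.96 ± 0.33, adjusted p = 4.53e-04), and had 1.30 ± 0.29 in the small intestine. Oas3, of the same family, had 0 counts in the 5 myenteric colon libraries and 8.14, 12.2, 6.22, 17.2 and 10.5 CPM in the submucosal ones, at least 12.0-fold higher against a floor of 3 counts per library. Epsti1 was 0, 0, 1.86, 7.03 and 26.6 CPM and 103, 26.0, 89.4, 86.1 and 70.8 CPM in the colon (log2 fold change 3.38 ± 0.91, adjusted p = 0.0116), and the lowest submucosal value was that of male 3. Dhx58 was higher in the colon (1.88 ± 0.55), and Trim30a and the exonuclease Isg20 were higher in the small intestine (1.61 ± 0.35 and 2.09 ± 0.61).

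**Figure D5:**
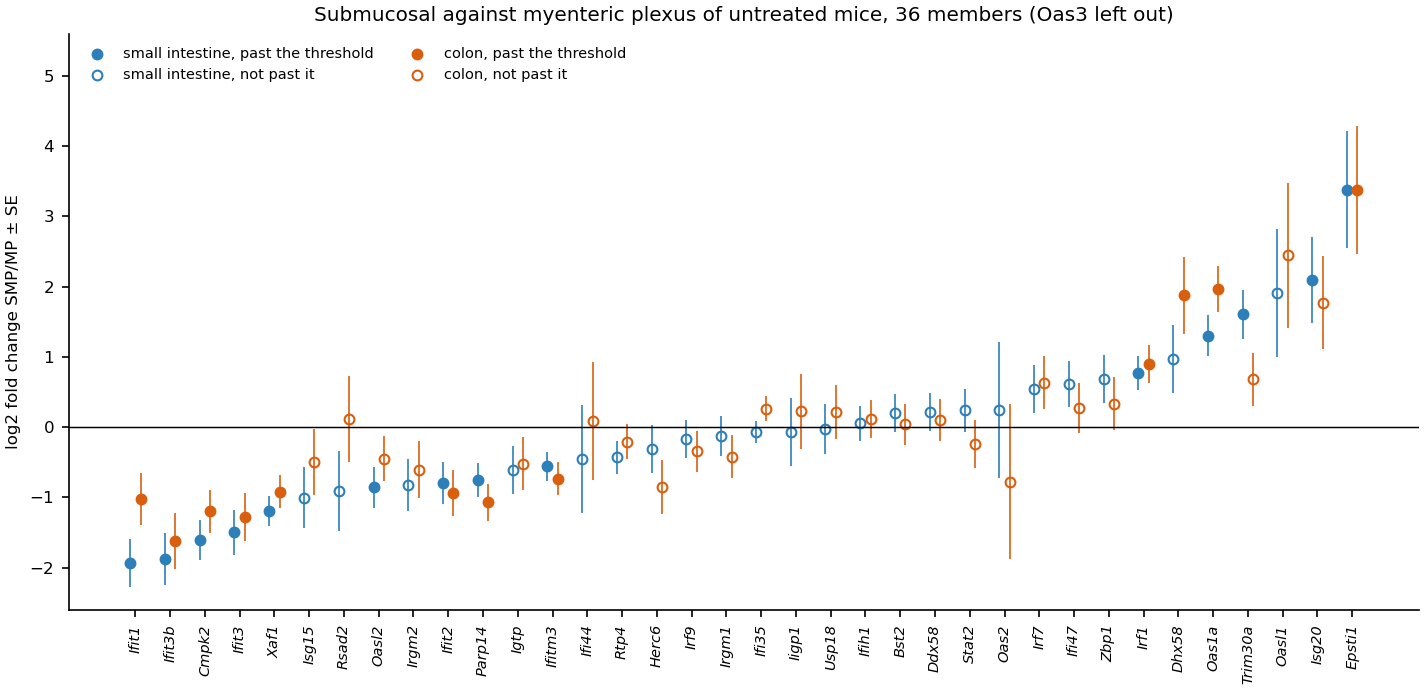
Log2 fold change ± SE of submucosal (SMP) against myenteric plexus (MP) in untreated mice for 36 members, in the small intestine (blue) and the colon (orange), filled where edgeR's adjusted p was under 0.05. Oas3 is left out because it has a bound in the colon. Ifit1, Ifit3b, Cmpk2, Ifit3 and Xaf1 stand at the left, and Epsti1 at the right with 3.38 in both regions.

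The plexuses also differed in markers of other cells. The 6 lymphocyte markers were all higher in submucosal libraries of both regions, with sums of 4.84 to 1086 CPM in myenteric and 14067 to 131738 CPM in submucosal libraries of the small intestine, and 3.73 to 296 CPM and 729 to 45004 CPM in the colon. Macrophage markers were higher for 8 of 8 (small intestine) and 7 of 8 (colon). Glial markers were lower for 6 of 6 and 3 of 6, with sums of 1501 to 2593 CPM in myenteric and 75.7 to 346 CPM in submucosal libraries of the small intestine, and 1143 to 2341 CPM and 142 to 857 CPM in the colon. Dendritic cell markers were higher for 3 of 4 in each region, and epithelial markers for 4 of 4 (small intestine) and 2 of 4 (colon). Smooth muscle markers were lower for 5 of 5 in each region, and neuronal markers for 6 of 6 and 4 of 6. Mitochondrial genes took 11.6% to 18.8% of counts in myenteric and 2.84% to 9.43% in submucosal libraries of the small intestine, without overlap, and 5.35% to 16.5% and 4.02% to 7.18% in the colon. Of the 24 pathway genes tested, 13 were higher and Tlr3 lower in submucosal libraries of the small intestine, and 9 were higher in the colon. Among them was Ifng, with 161 counts in 5 of 6 submucosal libraries of the small intestine and 0 in the myenteric ones, and 333 counts in 4 of 5 submucosal libraries of the colon against 12 in 1 of 5 myenteric ones. Irf8, a factor of myeloid cells and B cells, was higher in both (3.42 ± 0.45 and 2.31 ± 0.47). The part of these cells, or of the mitochondrial share, in the members' differences between plexuses was not tested.

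Between regions of untreated mice, few members differed. In the myenteric plexus Irgm1 was higher in the colon (361, 381, 91.0, 445 and 197 CPM) than in the small intestine (98.7 (lowest), 142 (median) and 170.5 (highest) CPM; log2 fold change 1.08 ± 0.30, adjusted p = 0.0472), and Oas3 was called lower. Oas3 had 0 counts in the 5 colon libraries and in 4 of the 6 small-intestinal ones, with 14 counts in female 1 and 77 in female 3. These are 2 of 37 members, where 3.19% of genes were called. The count was 0 without the filter, with only the groups compared or with a replicate block, and with single libraries left out it ranged from 0 to 3. It was 0 without the colon library of male 1 or female 2 or the small-intestinal library of female 1 or female 3, 1 without colon male 2 or female 3 or small-intestinal male 1, male 2, male 3 or female 2, and 3 (Ifi47, Igtp and Irgm1) without colon male 3. In the submucosal plexus no member passed by edgeR fitted over all groups, where 5.18% of genes did, 5 of 37 had an unadjusted p under 0.05 (17.7% of genes), and Igtp was called by DESeq2 (7.64% of genes) and by edgeR with only the groups compared (log2 fold change 1.18, adjusted p = 0.0300; 5.37% of genes). Each of the 5 GTPases had a higher estimate in the colon in both plexuses, with median log2 fold changes of 1.08 in the myenteric and 1.08 in the submucosal plexus. Igtp had 1.09 ± 0.36 and 1.18 ± 0.36 (adjusted p = 0.0995 and 0.0577), and its submucosal groups did not overlap, at 203, 192, 341, 281 and 399.9 CPM in the colon and 57.2 (lowest), 136 (median) and 168 (highest) CPM in the small intestine. Markers of other cells differed between regions too. In the myenteric plexus of the colon, neuronal markers were lower for 5 of 6, and higher were 2 of 5 of smooth muscle, 2 of 3 of fibroblasts and 1 of 2 of interstitial cells of Cajal. In the submucosal plexus, 2 of 3 endothelial, 1 of 6 glial and 1 of 4 neutrophil markers tested were higher in the colon, and 1 of 6 neuronal and 1 of 6 lymphocyte markers lower. Their part in the members' regional differences was not tested.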

How the data were processed

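RNA of enteric glial cells was sequenced by Smart-seq2, without molecular identifiers, per the labels' protocols. The authors deposited 2 tables of raw counts per gene symbol, and the submitters' processing notes name Trim Galore 0.4.4, STAR 2.5.3, DESeq2 and the build GRCm38. How shared reads and strand were counted is not given in the sources used here. At 24 h, 25 rows with date-like symbols were ambiguous and left out, and 0 columns belonged to no sample. The members and the gene lists were chosen with earlier results of these data known. Some genes of the glial marker and pathway lists are not reported here and were left out of their counts and sums.

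Each experiment was fitted alone in edgeR 4.0.16 (R 4.3.3; TMM, filterByExpr, quasi-likelihood F test over all groups), with Benjamini-Hochberg adjustment at 0.05. The SE is the log2 fold change divided by the root of F. The member mean used log2 CPM with a prior count of 2. Replicates are separate samples by their labels, and p-values measure the spread between these samples. Library values were given for a panel spanning the roles (Irf1, Irf7, Isg15, Ifit1, Ifit3, Rsad2, Usp18, Ifitm3, Bst2, Igtp, Iigp1, Zbp1), and called members were named, the 12 with the largest change first in LPS comparisons and up to 8 elsewhere. Library values of Ifi47, Irgm1, Rtp4, Oas1a, Oas3 and Epsti1, and further names, were added after their values were seen. Alternatives were RLE scaling, no filter, sex as a covariate, only the groups compared, a replicate block, the mouse number (10 and below as a covariate, or 11 and above alone), DESeq2 1.42.0 and leaving out each library. Scripts were tested on simulated data. In the 24 h experiment 15 mice gave both regions, and libraries of 1 mouse correlated above 0.1 in 10 of 15 pairs (mean 0.121, against -0.00157 for other pairs). The values printed for comparisons between regions at 24 h come from the fit without a mouse block. The mouse was the block in an alternative fit. PBS and LPS groups share no mouse. Counting limits cover counting error only.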

Additional observations from a re-analysis of the deposited data

Results flagged for a closer look

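Of 208 sets of libraries examined (a member or the member mean in 1 group), 11 held 1 library apart from the rest of its group by Dixon's test, and chance flags about 1 in 20 groups. In untreated mice, Ifitm3 was at 1779 CPM in the myenteric colon library of male 1 (others 1121 to 1278). Igtp was at 65.5 CPM in that of male 3 (others 448 to 582). The myenteric library of the small intestine of female 3 had the highest member mean, 5.82 (others 5.44 to 5.56), and the highest Irf1, 160.5 CPM (others 75.0 to 106).

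At 2 h, Irf7 was at 0.669 CPM in the LPS colon library of female 1 (others 52.7 to 56.3). At 24 h, Irf1 was at 322 CPM in the wild-type LPS colon library of mouse 5 (others 128 to 181) and at 367 CPM in the wild-type PBS library of the small intestine of mouse 14 (others 89.6 to 125). Ifit3 was at 124 CPM in the PBS colon library of mouse 14 (others 78.0 to 81.1). In knockouts, Rsad2 was at 283 CPM in the LPS colon library of mouse 2 (others 51.6 to 81.4). Isg15 was at 92.6 CPM in the LPS library of the small intestine of mouse 21 (others 42.8 to 55.5), and Irf7 was at 34.5 CPM in the PBS library of the small intestine of mouse 7 (others 68.7 to 73.6).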

How the results depend on the processing

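Counts of members called are compared here. DESeq2 gave 11 and 7 at 2 h (small intestine, colon), 12 and 8 in knockouts at 24 h, 1 (Oas1a) between genotypes after LPS in the colon and 1 between regions in the submucosal plexus. Fitting only the groups compared gave 1 at 2 h in the colon, 1 in knockout colon, 7 between plexuses in the colon, 0 between regions in the myenteric plexus and 1 in the submucosal. Mice numbered 11 and above gave 11 in knockout small intestine and 2 between genotypes after LPS in the colon. The myenteric count between regions was also 1 with RLE scaling or a sex covariate and 0 without the filter.

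Leaving out 1 library gave 4 to 6 and 1 to 7 at 2 h (small intestine, colon), 20 to 22 and 12 to 17 in wild type, 4 to 9 and 3 to 6 in knockouts, 10 to 15 and 11 to 15 between plexuses (colon, small intestine) and 0 to 3 between myenteric regions. The other comparisons stayed at 0. The shares of all genes called in the leave-out fits are not given here, so whether the members moved with all genes cannot be read from these ranges.

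With a replicate block the counts were 9 and 5 at 2 h, 12 and 15 between plexuses (colon, small intestine) and 0 between regions in both plexuses. The shares of all genes called with this block are not given here, so these counts do not set the members apart from other genes. Whether libraries of the same sex and number came from 1 mouse is not stated. At 2 h they correlated above 0.1 in 2 of 8 pairs of 1 treatment (mean 0.0708, against -0.0229 for other pairs) and in untreated mice in 10 of 30 (0.0928 against -0.0172), so a pairing was not shown, and a shared mouse cannot be told from these values. With the mouse as the block, 0 members differed between regional responses at 24 h, as without it.

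Among panel members and called members, the only ones followed for their sign, signs turned for Bst2, Irf7 and Irf1. Bst2 at 2 h in the colon ran from -0.107 to 0.0417 with 1 library left out (0.00192, 0.00342 and 0.0130 between). Irf7 there was -0.33 and ran from -0.523 to 0.107, the highest without LPS female 1. Irf1 was 0.44 in wild-type small intestine, -0.0769 there with mice numbered 11 and above, and 0.0513 to 0.999 with 1 library left out. In knockout small intestine it was 0.0773 with mice numbered 11 and above and ran from -0.287 to 0.292 with 1 library left out (0.0471 and 0.0396 between). The causes were not tested. Depth limits Oas3 at 2 h, which did not pass the filter, and Ifnb1, Ifng and the interferon alpha genes after LPS or PBS, at 37 or fewer counts per library.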
